A study of Homo sapiens with 6 samples.

Results

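MDM2, MDM4, PPM1D, CCNG1, RCHY1, COP1 and TP73 make up the circuit described here, the genes through which p53 is restrained and, in part, restrains itself. They were chosen by name, with earlier results of these data known: all probe sets whose only annotated symbol was one of 9 listed symbols. RFWD2 is the older symbol of COP1, and TP63 is not analysed here, which leaves 7 genes with 39 probe sets out of 18239 genes and 49386 probe sets in all. The samples were LNCaP cells, an established human line of prostate adenocarcinoma from a lymph node metastasis, grown in F12 medium with serum. One group was kept with 40 µM urolithin A for 24 h (3 arrays). Urolithin A arises in the gut, where bacteria break down dietary ellagitannins from fruits and nuts. The other group was the control (3 arrays), called untreated in the titles and saline-treated in the protocol. What urolithin A was dissolved in is not given in the sources used here, and LNCaP is a single line, so nothing here says how other prostate cells behave.

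p53 is a transcription factor that arrests or kills damaged cells, and its amount is set mostly by how fast the protein is degraded. MDM2 is a ubiquitin ligase that binds p53, blocks it and marks it for destruction, and p53 switches on the MDM2 gene, which closes a negative feedback loop. MDM4, a relative of MDM2, blocks p53 and pairs with MDM2, RCHY1 (Pirh2) and COP1 are further ubiquitin ligases for p53, PPM1D (Wip1) is a phosphatase that removes activating phosphates from p53 and its kinases, and CCNG1 (cyclin G1) recruits a phosphatase to MDM2. TP73 codes for p73, a relative of p53, which from an internal promoter also gives a shortened form that opposes p53. Induction by p53 has been described for CCNG1 and PPM1D and also for RCHY1, COP1 and the shortened form of p73.

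The promoters of these genes come first, because that of MDM2 holds the sequence through which p53 is known to reach this gene. RefSeq promoter windows (GRCh38.p14, 250 bases before to 50 after each annotated start) were found for 7 of 7 genes. Each was searched on both strands for the p53 consensus site, which has 20 letters in 2 adjoining units of 10, with no spacer, and the fewest mismatches were counted. The arrays carry no genome coordinates and do not tell starts of a gene apart. The downstream of the MDM2 promoters, which lies within the gene, is printed over the 250 bases before its start at chr12:68808767-68809016 on the + strand, with the best match in capitals.

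MDM2 internal promoter: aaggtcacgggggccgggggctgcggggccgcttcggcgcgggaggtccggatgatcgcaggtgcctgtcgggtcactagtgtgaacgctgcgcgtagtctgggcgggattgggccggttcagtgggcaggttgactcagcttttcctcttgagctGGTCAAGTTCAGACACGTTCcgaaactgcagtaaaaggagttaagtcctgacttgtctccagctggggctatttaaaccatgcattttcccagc

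That match spans bases 94 to 75 before the start and has 2 mismatches, 1 in each unit. Of 35116 promoter windows, 0.649% hold a match with 2 or fewer. For comparison, the best match of each of the other genes whose promoter or values matter most below is set beside it, with letters that match the consensus in capitals and mismatches in lower case.

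MDM2, chr12:68808923-68808942, + strand: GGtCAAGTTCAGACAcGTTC
TP73, chr1:3690596-3690615, + strand: GGGCAAGCTgAGGCcTGCCC
PPM1D, chr17:60599994-60600013, + strand: AAGCAAaCTaGGAgATGCgC
CCNG1, chr5:163437409-163437428, + strand: GGGgAAtTTgAGGCcAGaTa

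The TP73 match lies in its internal promoter, in 1 of 3 annotated windows, and also has 2 mismatches. PPM1D has 4 mismatches at best, which 26.0% of windows match or better, and CCNG1 has 6, as in 97.4% of windows. Of the genes not printed, MDM4 and RCHY1 have 5 at best, which 70.5% of windows match or better. COP1 has 7, which nearly all windows match or better. These shares are per window, and the MDM2 match is the best of 4 annotated windows. A match is a run of letters and not a measured binding site, and the windows leave out introns and more distant DNA. Only the best match of a window is marked, so any further matches in the printed sequence are not shown.

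The values printed below are on a log2 scale on which the median control of each probe set is 0. They show how arrays differ but not how abundant a transcript was, and the identity of the line could not be checked from marker levels. Precision is limited by having 3 arrays a group, and as nothing in the labels says that these were separate cultures, each p-value covers the spread of these arrays alone, which may be technical. The median over all probe sets was between -0.0013 and 0.014 on the urolithin A arrays and 0 on each control array. HLA-DRA, a class II antigen-presentation gene, read -0.017, 1.17 and 3.09 in urolithin A replicates 1, 2 and 3, against 1.01, 0.032 and -0.023 in control replicates 1, 2 and 3. It was thus high on 3 arrays. The main counts below are also given without the highest array of each group (urolithin A replicate 3 and control replicate 1). Leaving out all 3 keeps 1 urolithin A array, assumed to vary like the controls, so no counts are given for that fit. The mean of 11 luminal prostate markers lay between -0.76 and -0.60 in urolithin A arrays and between -0.056 and 0.045 in controls. Of these markers 4 fell (KLK2, TMPRSS2, KLK3 and SLC45A3) and FOLH1 rose, where 4.85% of all genes were called higher and 5.31% lower. The call of FOLH1 ended without urolithin A replicate 1 or 3 or control replicate 2 or 3 (limma adjusted p up to 0.0707). Limma called 0 of 9 basal, 0 of 7 fibroblast, 0 of 6 leukocyte and 0 of 6 endothelial markers (0 at an unadjusted p under 0.05 in each of these 4 lists). The mean of the leukocyte markers ran from -0.012 to 0.60 in urolithin A arrays and from -0.018 to 0.16 in controls. The part of these markers in the results was not tested.

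The ubiquitin ligase gene MDM2 rose 1.46-fold after urolithin A, the cyclin G1 gene CCNG1 1.26-fold and the phosphatase gene PPM1D 1.21-fold. The other 4, MDM4, RCHY1, TP73 and COP1, had log2 changes between -0.074 and 0.086 and did not pass. Thus 3 of 7 genes were called higher and 0 lower by limma, where 4.85% of all genes were called higher and 5.31% lower at an adjusted p under 0.05 (Benjamini-Hochberg over 18239 genes). As the genes were chosen with earlier results of these data known, this share comes from no blind choice. The count at an unadjusted p under 0.05 was also 3, all of them higher, as 12.5% of all genes were at that threshold. The urolithin A arrays lay wholly above the controls in the same 3 genes, as in 15.6% of all genes, and overlapped them in the other 4. No gene of the circuit lay wholly below the controls, as 13.7% of all genes did. The 3 rises were unequally firm. MDM2 passed in each of the 6 fits without 1 array (adjusted p up to 0.0478). CCNG1 passed only without urolithin A replicate 2 or control replicate 3 (adjusted p up to 0.114 in the other 4 fits). PPM1D passed only without urolithin A replicate 3, with 0.14 as the highest adjusted p of the other 5. Without the array of highest HLA-DRA in each group, 1 gene, MDM2, was called. Without all 3 arrays of high HLA-DRA, with 1 urolithin A array left, MDM2 had a log2 change of 0.78 and was not called.

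**Figure D1:**
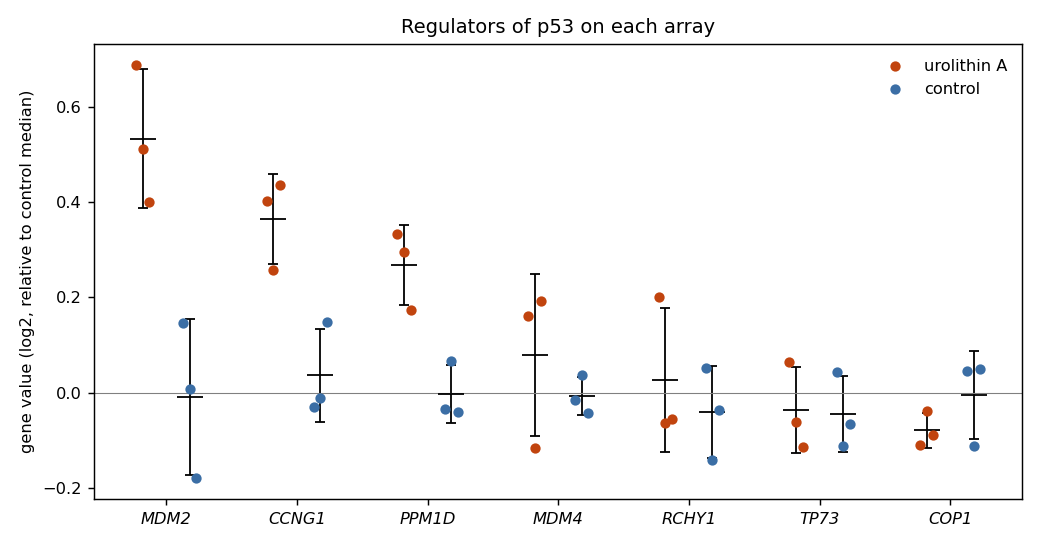
Gene values on each array (y axis, log2 relative to the control median) for 7 regulators of p53, urolithin A on the left and control on the right of each pair; points are arrays, and bars are the mean and SD of 3. For MDM2, CCNG1 and PPM1D all urolithin A points lie above all control points, and for the other 4 genes the groups overlap.

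MDM2, the ubiquitin ligase that p53 induces, had gene values (means of 11 probe sets, log2) of 0.69, 0.51 and 0.40 in urolithin A replicates 1, 2 and 3, against 0.15, 0.0067 and -0.18 in control replicates 1, 2 and 3. The groups did not overlap, and the gap between the lowest urolithin A array and the highest control was wider than the SD within either group. The means were 0.53 ± 0.15 in urolithin A and -0.0090 ± 0.16 in control (SD, n = 3 arrays each). The log2 change was 0.54 (SE 0.10, limma adjusted p = 0.0143, 95% interval 0.30 to 0.78). Without single arrays the change ran from 0.46 to 0.62.

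All 11 MDM2 probe sets had a positive change, from 0.26 to 1.01, and 6 passed. Over all 7 genes, 8 of 39 probe sets were called higher and 0 lower, where 4.01% of all probe sets were called higher and 4.4% lower. The probe set with the highest change, 11731568_x_at, read 0.97, 0.91 and 1.13 in urolithin A replicates 1, 2 and 3, against -0.17, 0.16 and 0 in control replicates 1, 2 and 3. It rose 2.02-fold (log2 change 1.01, SE 0.11, adjusted p = 0.00142 by limma over 49293 probe sets) and passed in each fit without 1 array. The lowest, 11753819_a_at, read 0.38, 0.25 and -0.25 in urolithin A arrays, against 0.097, 0 and -0.49 in controls, and did not pass (log2 change 0.26, SE 0.19, adjusted p = 0.504). Its groups overlapped, as did those of 3 other MDM2 probe sets, while in 7 the urolithin A arrays lay wholly above, as in 14.4% of all probe sets. Whether the MDM2 probe sets differed among themselves was tested with limma's diffSplice, which compares the change of each probe set of a gene with that of the others. They did not pass (adjusted p = 0.527), but did with the replicate number as a block (diffSplice adjusted p = 0.0296). Of the 11, 7 carry the suffix _x_at, with which Affymetrix marks probe sets that may bind other sequences. The remaining 4, named _a_at, gave a log2 change of 0.51 on their own (adjusted p = 0.0305). The number of MDM2 probe sets that passed fell to between 2 and 5 without single arrays, lowest without urolithin A replicate 1 or control replicate 3, at 2 each, and next without urolithin A replicate 3 or control replicate 2, at 3 each. It was 4 without urolithin A replicate 2.

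**Figure D2:**
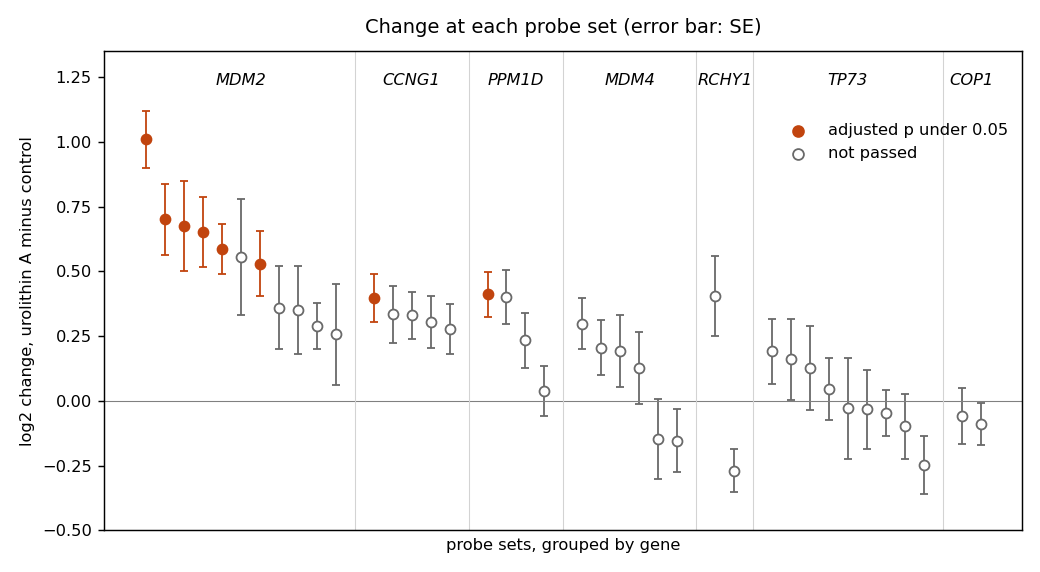
Change at each of the 39 probe sets (y axis, log2 of urolithin A minus control; error bars are SE), grouped by gene on the x axis, with filled points for an adjusted p under 0.05. The 8 filled points are 6 of MDM2 and 1 each of CCNG1 and PPM1D, and the RCHY1 points lie on opposite sides of 0.

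CCNG1, which codes for cyclin G1, had gene values of 0.40, 0.26 and 0.44 in urolithin A replicates 1, 2 and 3, against -0.029, -0.011 and 0.15 in control replicates 1, 2 and 3. All urolithin A arrays were above all controls, with urolithin A replicate 2 and control replicate 3 nearest to each other. The means were 0.36 ± 0.095 in urolithin A and 0.036 ± 0.098 in control (SD, n = 3 arrays each), a log2 change of 0.33 (SE 0.080, limma adjusted p = 0.0354). Its 5 probe sets moved alike, with changes between 0.28 and 0.40 and no overlap of the groups in any (14.4% of all probe sets lay wholly above), although only 11715674_s_at passed alone (adjusted p = 0.0346). That call ended without urolithin A replicate 1 or 3 or control replicate 1 or 2, at adjusted p up to 0.113. The probe sets showed no difference among themselves that passed (diffSplice adjusted p = 0.986).

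PPM1D, the phosphatase that acts on p53 and its kinases, had gene values of 0.33, 0.30 and 0.17 in urolithin A replicates 1, 2 and 3, against -0.035, 0.067 and -0.041 in control replicates 1, 2 and 3. The groups did not overlap. The means were 0.27 ± 0.084 in urolithin A and -0.0029 ± 0.060 in control (SD, n = 3 arrays each), a log2 change of 0.27 (SE 0.072, limma adjusted p = 0.0487), just under the threshold. The call was lost with median centring of the arrays (adjusted p = 0.0573). Of its 4 probe sets only 11739369_s_at passed (log2 change 0.41, adjusted p = 0.0225), and 11752090_a_at came close (0.40, adjusted p = 0.0504). The call of 11739369_s_at remained in 1 of the 6 fits without an array, that lacking urolithin A replicate 3, and the highest adjusted p of the other 5 was 0.0733. At the other end 11739370_a_at had a change of 0.037. The spread among the 4 did not pass (diffSplice adjusted p = 0.216).

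MDM4, the relative of MDM2 that blocks p53 without being a strong ubiquitin ligase itself, had gene values of 0.16, -0.12 and 0.19 in urolithin A replicates 1, 2 and 3, against -0.015, 0.036 and -0.042 in control replicates 1, 2 and 3. Urolithin A replicate 2 was below all controls and the other 2 urolithin A arrays above them. The log2 change was 0.086 (SE 0.091, limma adjusted p = 0.636), with a 95% interval of -0.12 to 0.29. None of its 6 probe sets passed, and their changes ran from -0.15 to 0.30 (0 of 6 called by limma, 1 at an unadjusted p under 0.05). That one, 11721915_a_at, read 0.37, 0.11 and 0.40 in urolithin A arrays, against 0.0023, -0.014 and 0 in controls (adjusted p = 0.109).

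The balance of the pair was read within each array as MDM2 minus MDM4. This difference was 0.53, 0.63 and 0.21 in urolithin A replicates 1, 2 and 3, against 0.16, -0.029 and -0.14 in control replicates 1, 2 and 3. It was higher in all urolithin A arrays than in any control, by 0.46 on average. An exact two-sided permutation test gave p = 0.1, the smallest that this test allows with 3 arrays against 3, so it could not reach the threshold of 0.05. No other test was run on this difference with all arrays unpaired.

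RCHY1, which codes for the ubiquitin ligase Pirh2, was the only gene of the circuit that diffSplice called with all arrays and treatment as the only term. MDM4 and TP73 also had probe sets with changes on both sides of 0. Probe set 11719570_at read 0.63, 0.23 and 0.14 in urolithin A replicates 1, 2 and 3, against 0.11, -0.32 and 0 in control replicates 1, 2 and 3, a log2 change of 0.41 (SE 0.16). Probe set 11719571_a_at read -0.23, -0.36 and -0.25 in urolithin A arrays, against 0, 0.039 and -0.071 in controls, a log2 change of -0.27 (SE 0.085). In each the groups did not overlap, in opposite directions (13.5% of all probe sets lay wholly below), but neither passed alone (limma adjusted p = 0.161 for 11719570_at and 0.0928 for 11719571_a_at). Their difference within an array was 0.86, 0.58 and 0.39 in urolithin A replicates 1, 2 and 3, against 0.11, -0.36 and 0.071 in control replicates 1, 2 and 3. DiffSplice called RCHY1 (adjusted p = 0.033), as it did 9.45% of the 11822 genes with more than 1 probe set, and no other gene of the circuit. The call stayed without urolithin A replicate 3 (adjusted p = 0.0385) and was lost without each of the other 5 arrays (highest adjusted p = 0.16). It was also lost without the array of highest HLA-DRA in each group (adjusted p = 0.0637) and without all 3 arrays of high HLA-DRA. The test takes probe sets as independent although they share arrays. The mean of both, 0.068 (SE 0.092, adjusted p = 0.726), is the average of a positive and a negative change. Which transcripts each probe set detects is not given in the sources used here.

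**Figure D3:**
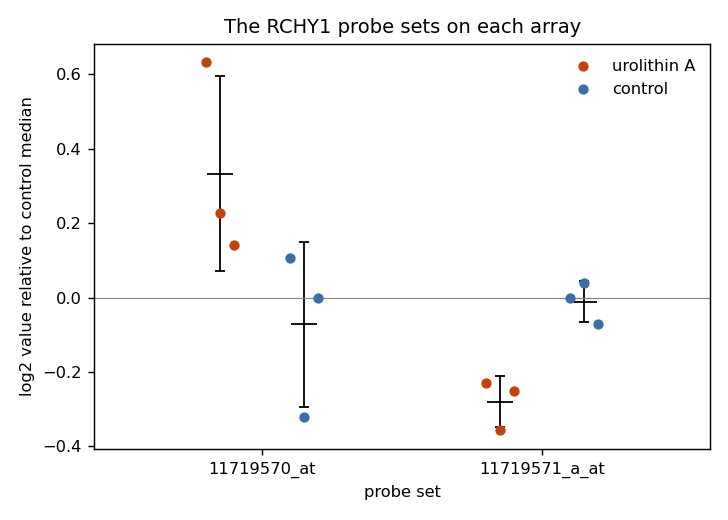
Values of the RCHY1 probe sets on each array (y axis, log2 relative to the control median), urolithin A on the left and control on the right of each pair; points are arrays, bars the mean and SD of 3. The urolithin A points of 11719570_at lie above the controls (lowest 0.14) and those of 11719571_a_at below them (highest -0.23).

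COP1, a ubiquitin ligase with further targets among transcription factors, had gene values of -0.11, -0.038 and -0.090 in urolithin A replicates 1, 2 and 3, against 0.046, -0.11 and 0.051 in control replicates 1, 2 and 3. The groups overlapped through control replicate 2. The log2 change was -0.074 (SE 0.071, limma adjusted p = 0.598, 95% interval -0.24 to 0.088), and its 2 probe sets had changes of -0.058 and -0.090.

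TP73, the gene of the p53 relative p73, had gene values of 0.064, -0.061 and -0.11 in urolithin A replicates 1, 2 and 3, against 0.044, -0.11 and -0.067 in control replicates 1, 2 and 3. The groups lay on top of each other. The log2 change was 0.0076 (SE 0.076, limma adjusted p = 0.971), with a 95% interval of -0.17 to 0.18. Limma called 0 of its 9 probe sets (0 at an unadjusted p under 0.05), whose changes ran from -0.25 to 0.19. The best p53 consensus match in the internal promoters of MDM2 and TP73 had 2 mismatches each, and MDM2 passed while TP73 did not. Further matches in a window were not counted, and the arrays do not tell starts of a gene apart. The difference between the changes of MDM2 and TP73 was not tested.

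Other genes known to modify p53 mostly did not pass, as the plot of changes by list shows. Of 34 measured ubiquitin ligases and deubiquitinases of the pathway, 2 rose and 0 fell, near the 4.85% called higher among all genes, and the list's median was 0.077, against 0.010 over all genes. Both that rose remove ubiquitin. USP11 read 0.86, 1.07 and 0.84 in urolithin A replicates 1, 2 and 3, against 0.059, 0 and -0.094 in controls (log2 change 0.94, SE 0.083, limma adjusted p = 0.000591). OTUD1 rose by a log2 change of 0.70 (adjusted p = 0.00472). Both calls held without each single array.

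Of 24 measured kinases that act on p53 or on MDM2, 2 rose (8.3%) and 3 fell (12.5%), and the median was -0.083. Of all genes, 4.85% were called higher and 5.31% lower. CHEK1, a DNA damage checkpoint kinase, read -0.68, -0.53 and -0.86 in urolithin A replicates 1, 2 and 3, against 0.0022, 0.081 and -0.11 in controls (log2 change -0.68, SE 0.097, limma adjusted p = 0.00407). CHEK2, another checkpoint kinase, had a log2 change of -0.45 (adjusted p = 0.00687). ATM, ATR and PRKDC, kinases of DNA damage signalling in the same list, are named after their values were seen and did not pass, with changes of 0.027, -0.0063 and -0.067 (limma adjusted p at least 0.785). AURKB, a mitotic kinase, had a change of -0.47 (adjusted p = 0.0177), a call that ended without urolithin A replicate 1, control replicate 1 or control replicate 2 (adjusted p up to 0.0666). CSNK1E, a casein kinase, and PLK3, a polo-like kinase, are named as the only risen members, after their values were seen, at 0.41 and 0.40. Of the 6 fits without 1 array, the call of CSNK1E stayed only without control replicate 1 and that of PLK3 only without urolithin A replicate 3, and the highest adjusted p otherwise was 0.077 for CSNK1E and 0.0891 for PLK3.

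The phosphatases that cyclin G1 and MDM2 work with, and cyclin G relatives, had 0 of 19 members called by limma (4 at an unadjusted p under 0.05), with changes between -0.17 and 0.28. Among 26 enzymes and readers of p53 acetylation and methylation, 2 rose (7.7%) and 1 fell (3.8%), against 4.85% and 5.31% of all genes. SMYD2, a methyltransferase that modifies p53, fell by 0.86 on the log2 scale (SE 0.097, limma adjusted p = 0.00143) in a call kept without each single array. ING4, a chromatin reader, and CREBBP, an acetyltransferase, rose by 0.38 and 0.31. The call of ING4 stayed only without control replicate 3 and that of CREBBP only without urolithin A replicate 2, with adjusted p up to 0.0694 and 0.138 otherwise.

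Nucleolar and ribosomal proteins include some that bind MDM2 and keep it from p53. Of 23 members, 2 were higher (8.7%) and 1 lower (4.3%), against 4.85% and 5.31% of all genes, with a median of 0.018. TAF1, a subunit of the general transcription factor TFIID, rose by 0.35 and RPS27L, a ribosomal protein relative, by 0.39, while the nucleolar GTPase gene GNL3L had a change of -0.34. All 3 calls depended on single arrays. That of TAF1 ended without urolithin A replicate 3 or any 1 control (adjusted p up to 0.0671), that of GNL3L without urolithin A replicate 2 or 3 or control replicate 2 (up to 0.0702), and that of RPS27L stayed only without urolithin A replicate 2 (up to 0.111 otherwise).

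Of 25 partners and cofactors of the p53 family, 1 rose (4%) and 4 fell (16%), against 4.85% and 5.31% of all genes. TWIST1, a transcription factor that can hold p53 back, read -0.98, -1.12 and -1.40 in urolithin A replicates 1, 2 and 3, against 0.19, 0 and -0.072 in controls. Its log2 change was -1.21 (SE 0.12, limma adjusted p = 0.000795). NEDD4L, a ubiquitin ligase, and ZBTB2, a zinc finger repressor, had changes of -0.93 and -0.56. These 3 calls held without each single array. CABLES1 (-0.31) and TP53INP1 (0.74), a p53 target that helps activate it, complete the called members and were named after their values were seen. The call of CABLES1 ended without urolithin A replicate 2 or control replicate 2 (adjusted p up to 0.0558).

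Of 23 measured genes that p53 induces outside the circuit, 13 rose (56.5%) and 1 fell (4.3%), with a median of 0.55. Among all genes 4.85% were called higher and 5.31% lower. The list of targets repeats much of a list already known to be raised in these data, so its share is no independent result. It is given only as the scale for the circuit. TP53I3, CDKN1A and DDB2, the 3 targets of smallest p, rose by 2.07, 1.38 and 1.08 on the log2 scale. In the same fit the change was 0.54 for MDM2, near the targets' median of 0.55, 0.33 for CCNG1 and 0.27 for PPM1D. The member that fell, PLK2, is named after its value was seen (-0.33), and its call stayed in 1 of 6 fits without an array, that lacking urolithin A replicate 1 (highest adjusted p elsewhere 0.0931). Of the 23 targets, 11 to 13 rose without single arrays and 11 without the array of highest HLA-DRA in each group. Without all 3 arrays of high HLA-DRA, with 1 urolithin A array left, the median change of the targets was 0.69.

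**Figure D4:**
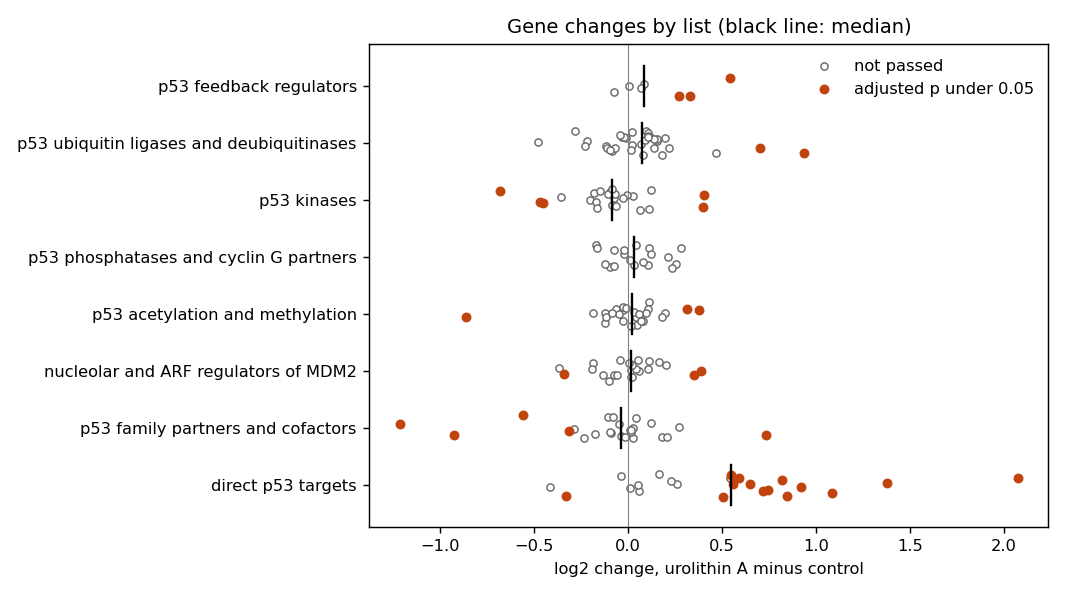
Gene-level change (x axis, log2 of urolithin A minus control) for the p53 feedback regulators and 7 other lists of the pathway (y axis), each point a gene, filled for an adjusted p under 0.05, with a black line at the median of the list. The targets of p53 are centred on 0.55, and the other lists on values between -0.083 and 0.086. The list of targets repeats much of one already known to be raised in these data.

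The genes whose 6 array values lay nearest to each called member, by root mean square difference of the gene values (log2), were as follows. Nearest to MDM2 were NIPSNAP3A at 0.053, XPC at 0.054 and TM7SF2 at 0.056. Nearest to CCNG1 were RPL37 at 0.035, LEPROT at 0.039 and EIF2AK3 at 0.040. Nearest to PPM1D were HEXIM1 at 0.024, GRSF1 at 0.028 and ACTBL2 at 0.029. The measure rests on 6 arrays and is a description. XPC, for one, read 0.72, 0.51 and 0.47 in urolithin A replicates 1, 2 and 3, against 0.049, 0 and -0.13 in control replicates 1, 2 and 3. XPC, a DNA damage recognition gene, is also in the list of p53 targets, and the other 8 are in none of the lists.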

How the data were processed

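Affymetrix U219 arrays measured RNA of 6 LNCaP samples. The deposited values are log2 values from RMA (background correction, quantile normalization and a summary per probe set), for which the submitters' processing notes name the tool without a version. The 3 controls had a median of exactly 0 in each of 49386 probe sets, so the control median had been subtracted, and base 2 was taken because RMA works on that scale. No batch is given in the sources used here. Probe sets were named through the platform annotation (45253 with 1 symbol, 1327 with several, 2713 with none, 93 array controls). A gene's value was the mean of its single-symbol probe sets. The moderated test of limma 3.58.1 (R 4.3.3; lmFit, then eBayes, two-sided, no term beside treatment) was run on 18239 genes and 49293 probe sets, each with Benjamini-Hochberg adjustment and a threshold of 0.05, and diffSplice tested probe sets of a gene against each other. The code was tested on simulated data. Named genes were the members, up to 3 called genes of smallest p from each list, and the 3 genes nearest to each called member. Members and lists were chosen with earlier results of these data known. Alternatives are given in the closing section. Group and replicate come from the sample titles, and no arrays held identical values.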

Additional observations from a re-analysis of the deposited data

How the results depend on the processing

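Every alternative kept the sign of the changes of MDM2, CCNG1, PPM1D, MDM4 and COP1. Without single arrays RCHY1 ran from -0.019 to 0.12, turning below 0 without urolithin A replicate 1, and TP73 from -0.043 to 0.052, below 0 without urolithin A replicate 1 or control replicate 2 or 3. TP73 also turned to -0.0090 with the median of the probe sets and to -0.041 without _s_at and _x_at probe sets. None of these was called.

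Of 3 genes called, 1 remained without _s_at and _x_at probe sets and with a trended and robust prior, and 0 with no moderation or at an adjusted p under 0.01, where limma's unadjusted p stayed under 0.05 for 3. Without single arrays 1 to 2 were called. MDM2 lost its call with no moderation (adjusted p = 0.121), at a threshold of 0.01 and without the 3 arrays of high HLA-DRA. CCNG1 was called in 6 of 16 alternatives and PPM1D in 3. Of 8 probe sets called, 3 remained without _s_at and _x_at probe sets, 4 with the trended and robust prior and 2 at 0.01. With no moderation 0 remained (16 at an unadjusted p under 0.05, as were 9694 of all probe sets). Without single arrays 2 to 5 were called. Genes whose probe sets differ numbered 0 at 0.01 (2 at an unadjusted p under 0.05) and 0 to 1 without single arrays.

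Over all 1854 genes called, the count was 560 with no moderation, 642 at 0.01 and 1063 to 1309 without single arrays. Over the 4144 probe sets it was 2557 with the trended and robust prior, 828 with no moderation, 1481 at 0.01 and 2229 to 2695 without single arrays. Both alternatives on HLA-DRA were chosen after seeing the data. With the array of highest HLA-DRA in each group left out, the counts were 705 genes, 1550 probe sets, 1 of the genes described, 3 of their probe sets and 0 with differing probe sets (1 at an unadjusted p under 0.05 in diffSplice). With all 3 arrays of high HLA-DRA left out, they were 48 genes, 82 probe sets, 0 of the genes described (4 at an unadjusted p under 0.05 in limma), 0 of their probe sets (20 likewise) and 0 with differing probe sets (1 in diffSplice). These fits also hold fewer arrays. The cause of the lower counts and of the other moves was not tested.

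Whether the replicate numbers pair the arrays is not given in the labels. Correlations of same-numbered arrays' deviations from their group means were 0.078, 0.023 and 0.20 for replicates 1, 2 and 3. Urolithin A replicates 1 and 3 correlated best with the control of the same number, and urolithin A replicate 2 with control replicate 1 (0.049). These values do not settle whether the arrays were paired. With the replicate number as a block, 1863 genes and 2 of those described were called, PPM1D being lost (adjusted p = 0.0597), and 9 of their probe sets. Probe sets then differed in 2 genes, MDM2 (diffSplice adjusted p = 0.0296) and RCHY1 (adjusted p = 0.0191). MDM2 minus MDM4 kept its sign throughout, from 0.37 to 0.66, with exact p between 0.1 and 0.333 (0.25 in the pairs, the smallest that 3 pairs allow).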
